A study of Mus musculus with 8 samples.

Results

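The genes described here are Fgf15, the fibroblast growth factors Fgf1 and Fgf2, the FGF receptors Fgfr1, Fgfr2, Fgfr3, Fgfr4 and Fgfrl1, and the klotho co-receptors Kl and Klb. They were found in the count table by symbol, and each of the 10 symbols matched 1 of 55523 entries. The list was chosen by readouts of these same data, and which values guided the choice is not recorded, so the levels and sex differences of the 10 genes are given as description and without p-values. The samples were gonadotropes, the pituitary cells that make luteinizing hormone and follicle-stimulating hormone, sorted as EGFP-positive cells from Ad4BP-BAC-EGFP mice, 4 samples from females and 4 from males. In these mice a bacterial artificial chromosome of the Nr5a1 (Ad4BP) gene drives EGFP, so the sort follows Nr5a1 activity. All 8 samples carry this transgene, none received a treatment in the labels, and the age, the number of animals behind a sample and any pooling are not given in the sources used here.

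FGFs are secreted proteins that bind receptor tyrosine kinases on the cell surface together with heparan sulfate. The endocrine FGFs bind heparan sulfate weakly and need a klotho protein as co-receptor. Fgf15, the mouse counterpart of human FGF19, is best known as an intestinal hormone that is induced by bile acids through the receptor FXR and acts on liver through Fgfr4 and beta-klotho (Klb) to lower bile acid synthesis. In the pituitary, FGF signalling is best known from development of the gland.

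The total was 18774578 to 31302588 counts per sample. Male replicate 1 stood apart. Its Nr5a1, the gene behind the sort, was 16.4 CPM (counts scaled by library size and edgeR's TMM factors, so that values compare between samples), while the remaining 7 samples had 590 to 1263 CPM, and the study left this sample out of its comparisons. The group values below therefore use 4 females and males 2 to 4, and male replicate 1 is given separately. The sex labels held in all 8 samples, with Xist at 214 to 417 CPM in females and 0.229 to 3.69 CPM in males, and Ddx3y at 0 to 0.367 CPM in females and 151 to 197 CPM in males. The 5 gonadotrope markers Lhb, Fshb, Cga, Gnrhr and Nr5a1 were all above 1 CPM in every sample, and they summed to 21520 to 34770 CPM in females, 67410 to 76470 CPM in males 2 to 4 and 28590 CPM in male replicate 1. The markers did not move together. Fshb was 1398 to 5706 CPM in females and 17060 to 30670 CPM in males 2 to 4, Nr5a1 went the other way, at 864 to 1263 CPM in females and 590 to 795 CPM in males 2 to 4, and Lhb, Cga and Gnrhr overlapped between the sexes. Markers of other pituitary cells were present too. Gh, the growth hormone transcript of somatotropes, was 12420 to 58210 CPM in females and 64410 to 143700 CPM in males 2 to 4. In male replicate 1 it was 30300 CPM. Ghrhr, also a somatotrope marker, overlapped, at 2.96 to 25.6 CPM in females and 8.82 to 61.3 CPM in males 2 to 4. Prl of lactotropes overlapped too, at 4679 to 18230 CPM and 6179 to 15840 CPM. So did Pomc of corticotropes, at 12380 to 22160 CPM and 10060 to 28860 CPM. The thyrotrope markers Tshb and Trhr summed to 21.5 to 85.0 CPM in females, 236 to 340 CPM in males 2 to 4 and 84.0 CPM in male replicate 1. The part of these other cells in the results below was not tested. In a sorted bulk sample, fewer cells of a type and less RNA per cell cannot be told apart.

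Fgf15 was counted in every male sample and in no female sample. It had 0 counts in each of the 4 females, 140 in male replicate 2, 112 in male replicate 3 and 47 in male replicate 4, and male replicate 1 had 103. The groups did not overlap. The mean of males 2 to 4 was 3.93 ± 1.66 CPM (SD, n = 3), a level near the middle of the expressed genes, since the 3 samples lay between percentiles 39.1 and 50.2 of the entries with a count. A count of 0 allows up to 3 counts per library, or 0.0918 to 0.147 CPM in the 4 females, so against the highest of these limits the mean of males 2 to 4 was at least 26.7-fold higher. The lowest of these males was at least 14.6-fold higher, and male replicate 1, at 4.52 CPM, at least 30.7-fold higher. Limits of this kind cover counting error only.

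Few entries had this pattern. Of the 55523 entries, 39 had 0 counts in all 4 females and at least 1 count in all 4 males. With at least 10 counts in every male there were 6, Fgf15, Gm42681, 4930556N09Rik, Tas1r1, St6galnac1 and the Y-linked Gm29650. With at least 40 there were 2, Fgf15 and Gm29650. Both limits were chosen after the values were seen, and the second lies just under the lowest male count of Fgf15. The first 120 coding bases of Fgf15, with the start codon in capitals, are shown because an antisense transcript covers them. They lie at chr7:144896679-144896798 on the plus strand of GRCm38 (mm10), in the first of the 3 exons of the coding transcript in GENCODE, which is 1810 bases long with 654 coding bases.
Fgf15: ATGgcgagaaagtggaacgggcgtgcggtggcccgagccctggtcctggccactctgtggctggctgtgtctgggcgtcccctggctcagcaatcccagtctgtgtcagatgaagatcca

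The gene spans chr7:144896531-144900953. The antisense gene Gm26793 (chr7:144894560-144897461, minus strand) overlaps the first 931 bases of it. All 120 printed bases, and 479 of the 1810 bases of the transcript, lie in exons of Gm26793. Gm26793 had 0 counts in each female, 64, 21 and 45 in males 2, 3 and 4, and 3 in male replicate 1. It was thus counted in males alone, as Fgf15 was, but without the same order, since male replicate 1 was near the bottom for Gm26793 and among the higher samples for Fgf15. The counting is not stated to use strand, so reads from this overlap cannot be assigned to one gene with certainty. Gm39119, which overlaps the other end of Fgf15, had 0 counts in all 8 samples.

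The genes beside Fgf15 did not share its pattern. Fgf3 and Fgf4, the FGF ligands 52.1 and 31.3 kb upstream, had 0 counts in all 8 samples. Ccnd1, the cyclin D1 gene 29.0 kb downstream, was 164 to 230 CPM in females and 176 to 222 CPM in males 2 to 4. LTO1, 14.1 kb downstream, was 32.5 to 67.5 CPM in females, and 69.9, 9.07 and 3.76 CPM in males 2, 3 and 4.

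**Figure D1:**
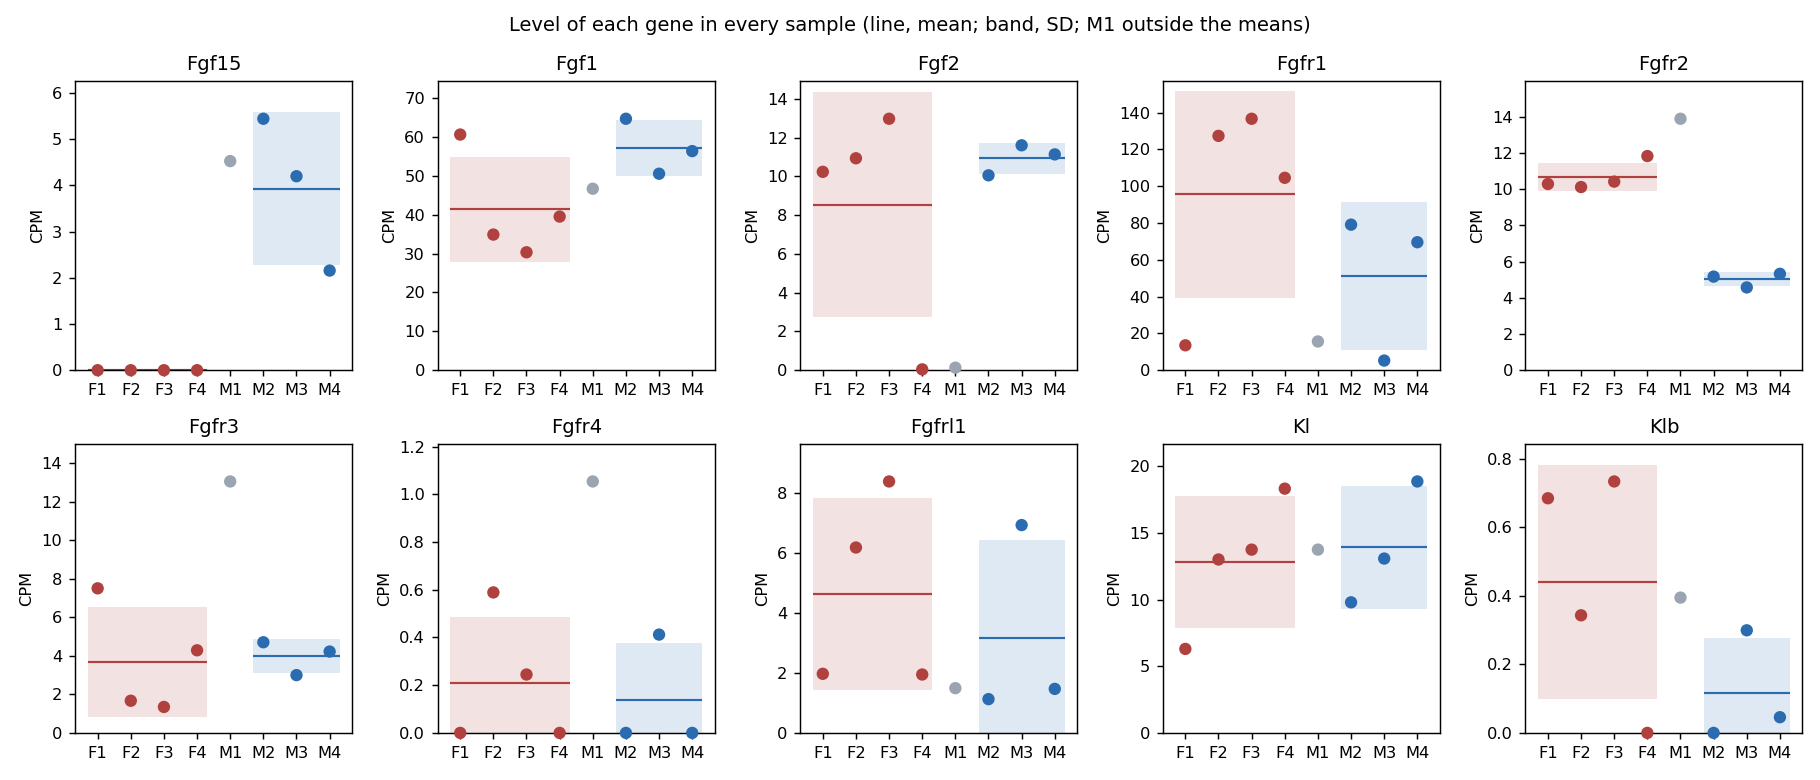
CPM of each of the 10 genes (vertical axes from 0) in the 4 females (F1 to F4, red), male replicate 1 (M1, grey) and males 2 to 4 (M2 to M4, blue), with the mean and SD of the red and blue points as line and band. Fgf15 was 0 in every female and 2.15 to 5.44 CPM in males 2 to 4, the Fgfr2 groups do not overlap, and single samples fall far below their group for Fgf2 and Fgfr1.

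Fgf1, the ligand that can bind all FGF receptors, was expressed in every sample. It was 60.6, 34.9, 30.3 and 39.5 CPM in females 1 to 4 and 64.7, 50.5 and 56.4 CPM in males 2 to 4, with 46.7 CPM in male replicate 1. Female replicate 1 lay among the males, and the groups overlapped. The means were 41.3 ± 13.4 CPM (SD, n = 4) and 57.2 ± 7.11 CPM (SD, n = 3), and the fitted log2 difference, males over females, was 0.45 (SE 0.26). Without female replicate 1 it was 0.71 (SE 0.18). Arhgap26, which overlaps Fgf1 on the opposite strand, was 9.70 to 19.6 CPM in females and 28.9 to 60.5 CPM in males 2 to 4, and reads from the overlap cannot be told apart without strand.

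Fgf2, or basic FGF, was at a like level in 6 of the 8 samples and nearly missing in the others. Females 1 to 3 had 10.2, 10.9 and 13.0 CPM and males 2 to 4 had 10.1, 11.6 and 11.1 CPM. Female replicate 4 had 1 count, or 0.0433 CPM, and male replicate 1 had 3 counts, or 0.132 CPM. The sex means, 8.55 ± 5.79 CPM (SD, n = 4) and 10.9 ± 0.796 CPM (SD, n = 3), and the log2 difference of 0.33 (SE 1.06) therefore rest on female replicate 4, and without it the difference was -0.06. The table gives Bbs12 under the same locus as Fgf2. Bbs12 was 8.14 to 13.0 CPM in females and 11.9 to 16.0 CPM in males 2 to 4, with 9.26 CPM in female replicate 4, so it did not fall where Fgf2 did. Nudt6, antisense to Fgf2, was 0.544 to 2.90 CPM in these 7 samples.

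Fgfr1, the receptor for both Fgf1 and Fgf2, had the highest mean of the receptors in both sexes and varied widely between samples. It was 127, 137 and 105 CPM in females 2, 3 and 4 but 13.5 CPM in female replicate 1. In males 2 and 4 it was 79.1 and 69.6 CPM but 5.25 CPM in male replicate 3, and male replicate 1 had 15.6 CPM. The levels thus fell into a high set of 5 samples and a low set of 3, with both sexes in each. The means were 95.6 ± 56.3 CPM (SD, n = 4) and 51.3 ± 40.2 CPM (SD, n = 3). The log2 difference was -0.92 (SE 0.99), so it was smaller than its error, and it ran from -1.38 to -0.38 as single samples were left out. In the 5 high samples alone, the females, at 105 to 137 CPM, lay above the males, at 69.6 and 79.1 CPM, a split made after the values were seen and given as values only.

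Drops of this kind in single samples were also seen elsewhere. Of 12398 genes with a median of at least 5 CPM over the 8 samples, 953 (7.69%) had a sample at less than 0.1 times the median, between 156 and 225 genes in any 1 sample. Of the 5 genes of the list that reach this median, 2 did, Fgf2 and Fgfr1. Of 48 other FGF pathway genes with this median, 2 (4.17%) did. The adaptor Shc1 fell to 1.42 CPM in male replicate 3, where the remaining 7 samples had 53.9 to 96.2 CPM. Hs6st2, a heparan sulfate sulfotransferase, reached 0.303 CPM in female replicate 4, where the remaining samples had 29.3 to 87.3 CPM. The cause was not tested.

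Fgfr2, which with Fgfr1 serves many paracrine FGFs, was lower in males 2 to 4 than in the females. The females had 10.3, 10.1, 10.4 and 11.8 CPM and the males 5.17, 4.57 and 5.32 CPM. The groups did not overlap and each was tight, at 10.7 ± 0.785 CPM (SD, n = 4) and 5.02 ± 0.396 CPM (SD, n = 3). The log2 difference was -1.11 (SE 0.16). Male replicate 1, at 13.9 CPM, was above every female, and with all 4 males the difference was -0.56 (SE 0.37). Of the 4 pituitary stem cell markers, 2 were likewise higher in every female than in males 2 to 4, but with male replicate 1 inside the female range. Sox2 was 49.8 to 77.9 CPM in females, 30.1 to 36.6 CPM in males 2 to 4 and 66.7 CPM in male replicate 1. Sox9 was 195 to 304 CPM, 109 to 134 CPM and 239 CPM in the same groups. Aldh1a2 and Cyp2f2 overlapped between the sexes, and the 4 summed to 799 to 1278 CPM in females, 841 to 1131 CPM in males 2 to 4 and 1062 CPM in male replicate 1. The part of stem cells in the Fgfr2 difference was not tested.

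Ctbp2, a transcriptional corepressor, stands under the same locus as Fgfr2 in the table, and GENCODE's Fgfr2 (chr7:130162451-133123350, minus strand) reaches into it on the same strand. Ctbp2 moved like Fgfr2. It was 46.8 to 55.3 CPM in females, 25.9 to 31.4 CPM in males 2 to 4 and 71.7 CPM in male replicate 1. In the edgeR fit its log2 difference was -0.85 (SE 0.15). No p-value is given for it, since Ctbp2 was picked for sharing a locus with a listed gene. The ratio of Fgfr2 to Ctbp2 was 0.186 to 0.224 in females, 0.169 to 0.181 in males 2 to 4 and 0.194 in male replicate 1, a far smaller spread than that of either gene. Whether reads of one entered the other was not tested. With the counts of the locus summed, the log2 difference was -0.89 (SE 0.14).

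**Figure D2:**
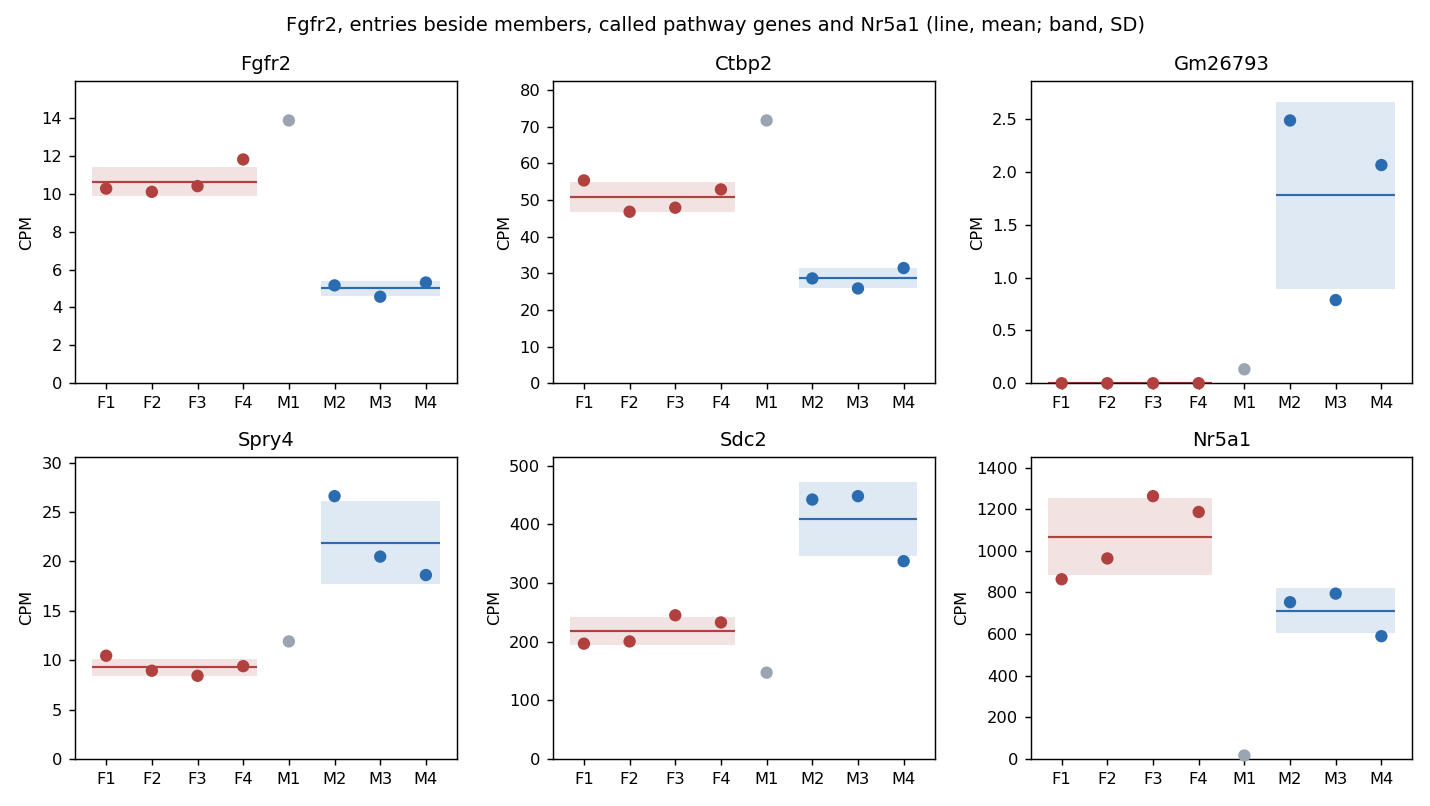
CPM (vertical axes from 0) of Fgfr2, of Ctbp2 from its locus, of Gm26793 antisense to Fgf15, of Spry4 and Sdc2, and of Nr5a1, in females F1 to F4 (red), male replicate 1 (M1, grey) and males M2 to M4 (blue), with mean and SD as line and band. Fgfr2 and Ctbp2 show the same order of groups, with M1 above all females, and Nr5a1 in M1 was 16.4 CPM.

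Fgfr3 and Fgfr4 were low. Fgfr3, a receptor known for restraining bone growth, was 7.50, 1.67, 1.35 and 4.29 CPM in females 1 to 4, 4.70, 2.997 and 4.22 CPM in males 2 to 4 and 13.0 CPM in male replicate 1. The female values spanned the male values, and the log2 difference was 0.08 (SE 0.61). It ran from -0.18 without female replicate 3 to 0.70 without female replicate 1, and was 0.75 with all 4 males, so neither its sign nor its size was stable. Fgfr4, the receptor of Fgf15 in liver, had 0, 12, 8 and 0 counts in females 1 to 4, 0, 11 and 0 in males 2 to 4 and 24 in male replicate 1. The highest of these was 1.05 CPM. Fgfr4 did not pass the filter on low counts.

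Fgfrl1, a receptor-like protein without the tyrosine kinase domain, was also split into higher and lower samples. It was 6.18, 8.39 and 6.93 CPM in female replicates 2 and 3 and male replicate 3. It was 1.13 to 1.97 CPM in the other 5 samples. Female replicates 2 and 3 were high for both this gene and Fgfr1, and female replicate 1 and male replicate 1 were low for both. The other 4 samples differed between the genes, and male replicate 3 was the highest male for Fgfrl1 and the lowest for Fgfr1. The log2 difference was -0.56 (SE 0.81). Without male replicate 3 it was -1.85 and without female replicate 3 it was -0.09, so this value rests on single samples.

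Kl, the alpha-klotho co-receptor of Fgf23, was present in every sample, and Klb was close to absent. Kl was 6.30, 13.0, 13.7 and 18.3 CPM in females 1 to 4, 9.79, 13.1 and 18.9 CPM in males 2 to 4 and 13.7 CPM in male replicate 1. The means were 12.8 ± 4.95 CPM (SD, n = 4) and 13.9 ± 4.59 CPM (SD, n = 3), with a log2 difference of 0.09 (SE 0.38), inside the spread of either sex. It ran from -0.19 without male replicate 4 to 0.34 without female replicate 4. Klb, the co-receptor through which Fgf15 acts, had 16, 7, 24 and 0 counts in females 1 to 4, 0, 8 and 1 in males 2 to 4 and 9 in male replicate 1. Its highest level was 0.735 CPM, and it did not pass the filter. In the male samples with Fgf15 transcripts, Fgfr4 and Klb were thus at 0 to 1.05 CPM and 0 to 0.395 CPM.

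Per kilobase of annotated exon, Fgfr1 and Fgf1 led the list. In females the means were 9.68 ± 5.70 CPM per kb for Fgfr1 and 7.57 ± 2.45 CPM per kb for Fgf1 (SD, n = 4). Their ranges overlapped, so their order is not fixed. Fgfrl1 (1.66), Kl (1.38), Fgf2 (1.26) and Fgfr2 (1.03 CPM per kb) came next, each overlapping its neighbour, and Fgfr3 followed at 0.517 CPM per kb, overlapping Fgfr2. Klb (0.0969) and Fgfr4 (0.0588 CPM per kb) lay below all of these. In males 2 to 4 the order began with Fgf1 at 10.5 ± 1.30 CPM per kb (SD, n = 3), apart from Fgfr1 at 5.20 ± 4.07 CPM per kb. Fgf15, at 1.28 ± 0.542 CPM per kb, stood at rank 5 and overlapped Kl (1.49) and Fgfrl1 (1.14 CPM per kb). Fgfr2, at 0.486 CPM per kb, was the last before the gap to Fgfr4 (0.0388) and Klb (0.0253 CPM per kb). With the length of the longest transcript in place of all exons, the middle of the order moved. Fgfr2, whose exons sum to 10328 bases but whose longest transcript has 4429, went from rank 6 to rank 3 in females and from rank 8 to rank 7 in males, and Fgf15 went from rank 5 to rank 4 in males. Fgfr1 and Fgf1 stayed at ranks 1 and 2 in females and 2 and 1 in males, and Fgfr4 and Klb stayed below Fgfr3 in both sexes.

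The share of Fgfr1 among the receptors differed between samples. Fgfr1 made up 85.9 to 91.6% of the summed level per length of Fgfr1 to Fgfr4 in the 5 samples with high Fgfr1. It made up 40.2% in female replicate 1, 31.4% in male replicate 1 and 35.2% in male replicate 3. The summed level was 8.15 to 15.1 CPM per kb in the former and 1.51 to 5.05 CPM per kb in the latter, so the summed level was lower where Fgfr1 was low. Other receptors were higher in some of these samples. Fgfr3 was 7.50 CPM in female replicate 1 and 13.0 CPM in male replicate 1 and at most 4.70 CPM elsewhere, and Fgfr2 was highest in male replicate 1.

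**Figure D3:**
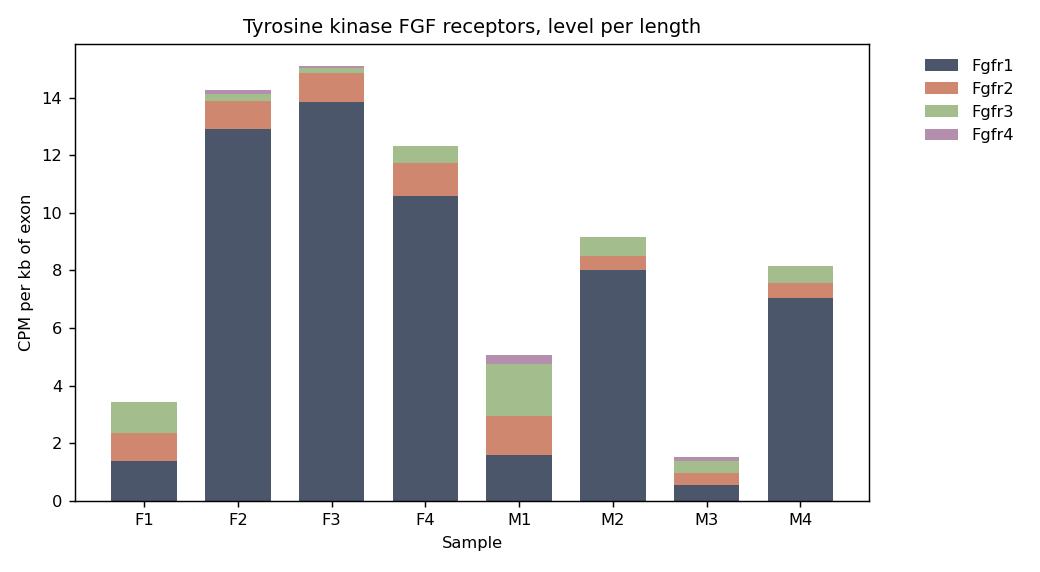
Stacked CPM per kilobase of exon of Fgfr1, Fgfr2, Fgfr3 and Fgfr4 (vertical axis from 0) in each of the 8 samples, F1 to F4 females and M1 to M4 males. Fgfr1 takes most of the bar in F2, F3, F4, M2 and M4, and at most 40.2% of it in F1, M1 and M3.

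Across all 20152 genes that passed the filter, 2.34% were past an adjusted p of 0.05 between males 2 to 4 and the females. The test was edgeR's quasi-likelihood test with Benjamini-Hochberg adjustment. Of all genes tested, 0.983% were past it and higher in males and 1.35% past it and higher in females. The groups did not overlap in 22.5%. Of the 8 genes of the list that passed the filter, 2 were past that threshold, Fgf15 and Fgfr2, and these were also the 2 whose groups did not overlap. Fgf15 passed the filter through its counts in males alone. Since the list was also chosen with results of these data known, nothing is read from this count. It was 0 when any 1 of the 7 samples was left out, 1 (Fgf15) with all 4 males and 1 (Fgfr2) when at least 10 counts were asked of every sample, a filter that Fgf15 cannot pass.

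The rest of the FGF pathway was described through 82 further genes in 6 lists, of which 64 passed the filter. The lists were chosen with results of these data known. In the same edgeR fit 2 of the 64 (3.12%) were called, against 2.34% of all genes in either direction. Both were higher in males, as were 0.983% of all genes, and 0 were higher in females. At an unadjusted p under 0.05 the count in either direction was 18 (28.1%), where the share of all genes was 19.9%. DESeq2 called 10 (15.6%), where it called 11.7% of all genes. The 2 called genes were Spry4 and Sdc2, and with all 4 males in the fit neither was called. The p-values measure the spread between these samples, which may be technical.

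Spry4 belongs to the Sprouty family, feedback inhibitors induced by receptor tyrosine kinase signalling. It was 10.5, 8.93, 8.42 and 9.39 CPM in females 1 to 4 and 26.6, 20.5 and 18.6 CPM in males 2 to 4, with no overlap. The log2 difference was 1.21 (SE 0.18, edgeR adjusted p = 0.0313), and it was positive under all 15 alternatives. Leaving out any 1 sample moved it out of the called set, with adjusted p from 0.0526 to 0.0974. Male replicate 1, at 11.9 CPM, was nearer to the females than to the other males.

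The feedback and target list held 12 genes, of which 11 passed the filter, 9 with a positive difference and a median log2 difference of 0.38 against -0.03 for all genes tested. Dusp6, the phosphatase that switches off ERK, was 28.1 to 55.3 CPM in females and 78.4 to 106 CPM in males 2 to 4. Its groups did not overlap, but it missed the threshold (log2 difference 0.999, SE 0.25, edgeR adjusted p = 0.0876), whereas DESeq2 called it. Male replicate 1, at 51.4 CPM, was inside the female range of Dusp6. Il17rd of the same list went the other way without overlap (log2 difference -0.57, SE 0.26, edgeR adjusted p = 0.275). It was 19.2 to 35.5 CPM in females and 14.1 to 18.7 CPM in males 2 to 4. Spry1 was 44.7 to 65.9 CPM in females and 58.4 to 85.1 CPM in males 2 to 4 (0.38, SE 0.19, edgeR adjusted p = 0.329). Spry2 was 46.0 to 57.6 CPM and 50.8 to 64.5 CPM (0.12, SE 0.15, edgeR adjusted p = 0.732). Under library size alone Spry2 turned to -0.09.

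Sdc2, the heparan sulfate proteoglycan syndecan-2, was the gene that edgeR called among the 26 heparan sulfate and carrier genes, of which 24 passed the filter. DESeq2 called it with 3 others, Glce, Hs2st1 and Sdc3, and edgeR with library size alone called Hs2st1 and not Sdc2 (adjusted p = 0.0601). It was 196, 200, 245 and 233 CPM in females 1 to 4 and 442, 448 and 337 CPM in males 2 to 4, with no overlap, and 147 CPM in male replicate 1, below every female. The log2 difference was 0.88 (SE 0.15, edgeR adjusted p = 0.0417), positive under all 15 alternatives, with adjusted p from 0.0506 to 0.143 as single samples were left out. The most abundant gene of this list was Sdc4, at 551 to 917 CPM in females and 494 to 715 CPM in males 2 to 4. Gpc4, a glypican, was 127 to 192 CPM and 148 to 186 CPM. The list had 11 positive and 13 negative differences, with a median of -0.18.

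Grb2, which links activated receptors to Ras, was the adaptor with the lowest adjusted p. It was 92.4 to 102 CPM in females and 63.5 to 72.4 CPM in males 2 to 4, without overlap (log2 difference -0.54, SE 0.12, edgeR adjusted p = 0.0721). In the edgeR fit none of the 12 adaptors was called, with 2 at an unadjusted p under 0.05, and their median was 0.05. DESeq2 called 2 of them, Grb2 and Gab1, both lower in males, and edgeR with library size alone called Grb2. Ptpn11 and Crk, the others of highest level, were 98.8 to 127 CPM and 79.6 to 140 CPM in females and 102 to 143 CPM and 102 to 112 CPM in males 2 to 4.

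Of 15 other ligands, 4 had 0 counts in all 7 compared samples (Fgf3, Fgf4, Fgf8 and Fgf20) and 6 passed the filter, with a median log2 difference of -0.05 and none called by edgeR or DESeq2 (1 at an unadjusted p under 0.05 in edgeR). Fgf10 was the highest, at 12.0 to 24.5 CPM in females and 18.2 to 24.3 CPM in males 2 to 4. Fgf9 was 4.56 to 8.22 CPM and 7.38 to 9.40 CPM, and Fgf22 was 1.47 to 3.56 CPM and 0.637 to 1.24 CPM without overlap (edgeR adjusted p = 0.191). The other endocrine FGFs, named here for that role, were low. Fgf21 was 0.214 to 0.638 CPM in females and 0.738 to 1.51 CPM in males 2 to 4, and Fgf23, the ligand of Kl, was 0 in all but 2 samples, male replicates 1 and 3, at 0.176 and 0.562 CPM. The 4 intracellular FGF homologous factors, which bind sodium channels and not receptors, all passed the filter and none was called by edgeR or DESeq2, with 2 at an unadjusted p under 0.05 in edgeR. Fgf13 was 16.9 to 35.6 CPM in females and 24.3 to 29.7 CPM in males 2 to 4, Fgf12 was 7.92 to 14.4 CPM and 5.60 to 20.8 CPM, and Fgf14 was 4.80 to 16.7 CPM and 20.4 to 25.7 CPM.

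Of the 13 genes of the bile acid axis that Fgf15 serves in gut and liver, 5 had 0 counts in all 7 samples, among them Cyp7a1, the rate-limiting enzyme of bile acid synthesis, and Slc10a2, the ileal bile acid transporter. Nr1h4, which encodes FXR, was 0.343 to 0.704 CPM in females and 0.596 to 1.17 CPM in males 2 to 4. Nr0b2, an orphan receptor that represses other nuclear receptors, was 12.6 to 20.0 CPM and 14.2 to 25.0 CPM. Cyp27a1 was 2.42 to 4.96 CPM and 6.06 to 14.4 CPM without overlap (edgeR adjusted p = 0.128), and Nr5a2 was 2.57 to 9.73 CPM and 3.30 to 6.25 CPM. Of the 7 that passed the filter none was called by edgeR, with 2 at an unadjusted p under 0.05, and the median was -0.08. DESeq2 called 2, Cyp27a1, higher in males, and Slc10a1, a bile acid transporter, lower in males.

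**Figure D4:**
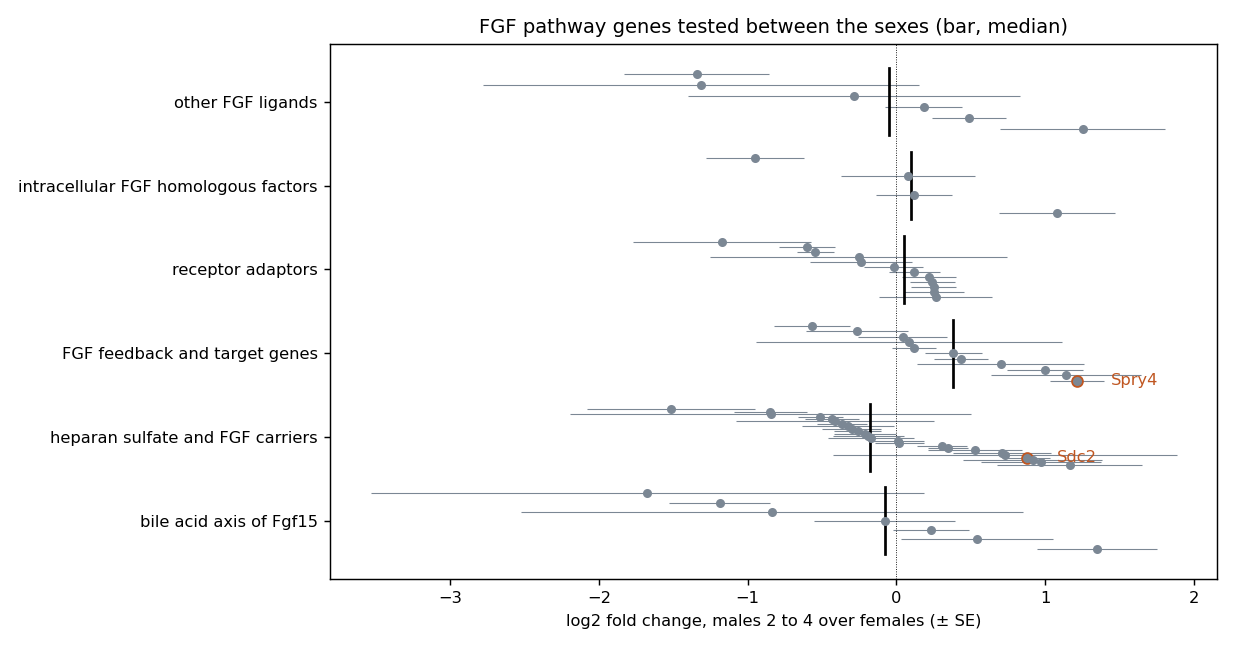
The log2 fold change of males 2 to 4 over females with its SE (horizontal axis) for the 64 FGF pathway genes that passed the filter, by list, with list medians as vertical bars and genes called by edgeR in orange. Spry4 at 1.21 and Sdc2 at 0.88 are the called genes, and the medians of the lists run from -0.18 to 0.38.

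The genes whose profiles came nearest to those of Fgf15, Fgfr1 and Kl were found by the root mean square difference of log2(CPM + 1), centred over the 7 samples, among 13934 genes with a mean of at least 1 CPM. Nearest to Fgf15 were Gata2 (0.216), Plpp4 (0.238) and Gpr101 (0.244). Gata2, a transcription factor of gonadotropes and thyrotropes, was 64.5 to 68.6 CPM in females and 302, 248 and 189 CPM in males 2, 3 and 4, and 332 CPM in male replicate 1. Plpp4 was 0.214 to 0.736 CPM in females and 5.14 to 9.44 CPM in males 2 to 4, with 4.00 CPM in male replicate 1. Gpr101, an orphan receptor, was 0 to 0.275 CPM in females, 2.80 to 7.60 CPM in males 2 to 4 and 8.21 CPM in male replicate 1. Male replicate 1, which took no part in this ranking, was on the male side for all 3, as it was for Fgf15.

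Nearest to Fgfr1 were Tspoap1 (0.286), Scn3a (0.411) and Atp6v0a1 (0.586), which were low in female replicate 1 and male replicate 3 as Fgfr1 was. Male replicate 1 parted them. There Scn3a was 13.7 CPM, low like Fgfr1, whereas Tspoap1 was 77.8 CPM and Atp6v0a1 was 132 CPM, above all of their other samples. Nearest to Kl were Prorsd1 (0.117), Zbed5 (0.127) and Nell2 (0.149). Prorsd1 was 0.942 to 4.36 CPM in the 7 samples but 75.3 CPM in male replicate 1, where Kl, at 13.7 CPM, was inside the range of the other samples.

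**Figure D5:**
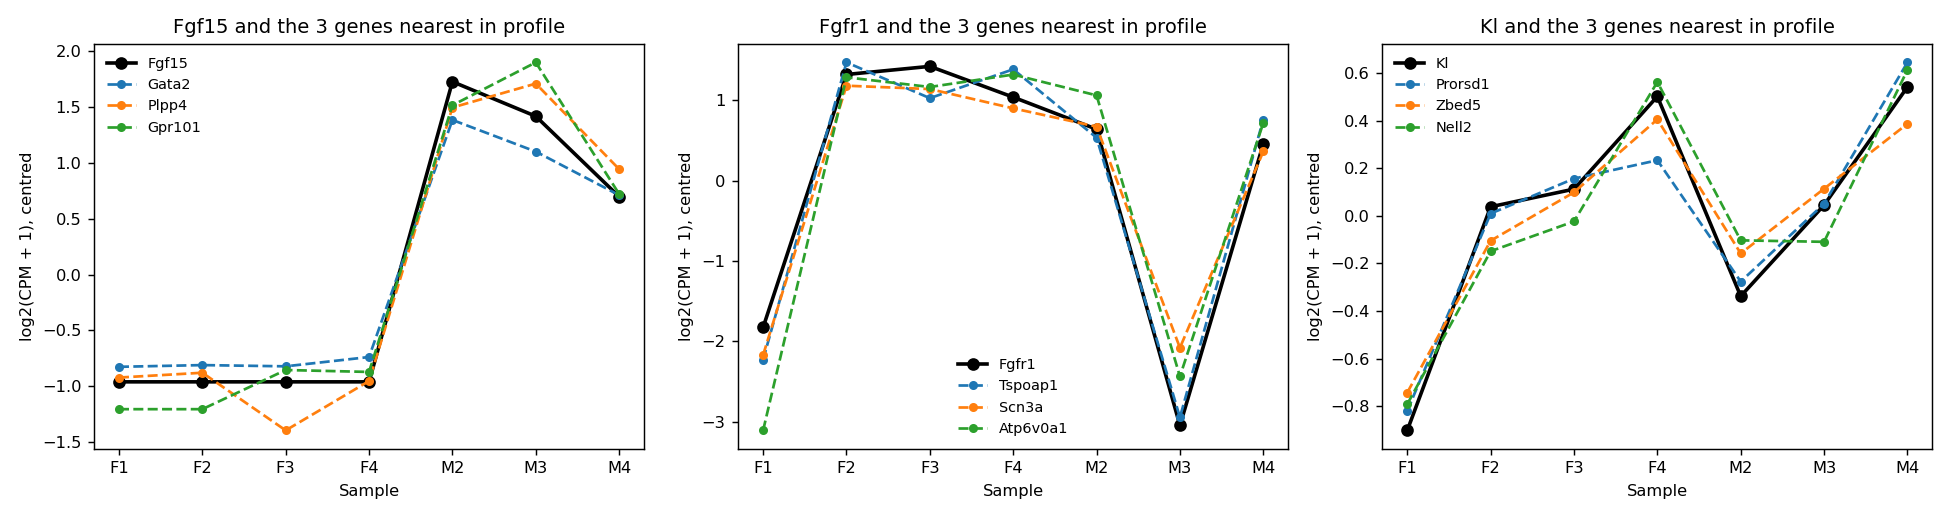
Profiles of log2(CPM + 1), centred over females F1 to F4 and males M2 to M4 (vertical axis), for Fgf15, Fgfr1 and Kl (black) and the 3 genes nearest to each (coloured, dashed). The Fgf15 group steps up between the sexes, the Fgfr1 group drops in F1 and M3, and the Kl group is lowest in F1 and highest in F4 and M4.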

How the data were processed

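Paired-end reads of 150 bp came from RNeasy micro RNA and NEBNext low-input libraries. Per the submitters' processing notes and the study's methods, the authors trimmed reads with cutadapt 4.2, aligned them to mm10 with STAR 2.5.4a and counted them with featureCounts 1.6.1 at default settings. The annotation is not given in the sources used here. The deposited table holds counts for 55523 entries in 8 samples, and 0 columns were left unmapped. Of these entries, 28933 are named by an assembled locus and a symbol. The methods name no step that assembles loci, so how these entries were made and counted is not settled. Library preparation and sequencing batches are not given. Here the counts of 4 females and males 2 to 4 were fitted with edgeR 4.0.16 (R 4.3.3; TMM factors, default expression filter, quasi-likelihood test, Benjamini-Hochberg adjustment, threshold 0.05), with males over females as the sign. The script was tested on simulated data. The labels number the replicates within each sex and tie no number across the sexes. Where a level is per length, it was divided by the union of GENCODE exons on GRCm38, or, as an alternative, by the longest transcript. Alternatives were DESeq2 1.42.0, other scalings and filters, all 8 samples, a replicate block, loci in place of symbols and single samples left out. Figures were drawn with matplotlib 3.10.9.

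The genes and the pathway lists were chosen with earlier results of these data known. Of the pathway genes, those named are the called ones and the 3 of highest mean CPM in each list, and further genes named for their role or after their values were seen. Of the profile neighbours, names beginning with Gm or ending in Rik were left out. The comparison of drops in single samples was chosen after the values were seen.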

Additional observations from a re-analysis of the deposited data

Results flagged for a closer look

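For the genes given with values, each group of 4 (the females or all 4 males) was examined for a sample far from the rest by Dixon's limit at the 95% level. Of 137 such groups, 13 held one. A rate of 1 in 20 would give 6.85, but only for independent groups with a normal spread. These groups are not of that kind. Each male group holds male replicate 1, which was set aside above, and Fgfr2 and Ctbp2 share a locus. The genes were also chosen with these data known, so the 13 are a description and are not set against chance. Of the 13, 4 were groups of the FGF ligands and receptors themselves. In male replicate 1, Fgf2 was 0.132 CPM, where males 2 to 4 had 10.1 to 11.6 CPM. There Fgfr2 was 13.9 CPM, with 4.57 to 5.32 CPM in males 2 to 4, and Fgfr3 was 13.0 CPM, with 2.997 to 4.70 CPM in males 2 to 4. In male replicate 3, Fgfrl1 was 6.93 CPM, and the remaining males had 1.13 to 1.49 CPM. Also in male replicate 1, Ctbp2 was 71.7 CPM, Slc10a1 6.98 CPM and Prorsd1 75.3 CPM, with at most 31.4, 1.05 and 4.36 CPM in males 2 to 4. In female replicate 1, Etv1 was 50.7 CPM and Ndst3 5.31 CPM, with at most 13.8 and 1.90 CPM in females 2 to 4, while Atp6v0a1 was 4.97 CPM, with at least 114 CPM in females 2 to 4. In female replicate 3, Plpp4 was 0.214 CPM, with at least 0.649 CPM in the remaining females, and Ddx3y was 0.367 CPM, with 0 in the remaining females. In female replicate 4, Hs6st2 was 0.303 CPM, with at least 53.8 CPM in the remaining females.

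Fgf15 in male replicate 1 was 4.52 CPM. This sample was outside the fit, and its level was above the 0 counts of every female.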

How the results depend on the processing

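The count of genes past the threshold between the sexes was 471 and moved with the setting, to 2329 with DESeq2, 806 with library size alone, 177 with no filter beyond 1 count and 67 with all 8 samples. It was 88 to 171 with single samples left out, each of the 7 samples lowering it by over 1.5 times. The pathway count of 2 became 10 with DESeq2, 1 with no filter beyond 1 count and 0 with all 8 samples, and 0 to 2 with single samples left out. The 2 without female replicate 1 were Etv1 and Ndst3, not Spry4 and Sdc2. The count of listed genes past the threshold, 2, became 1 with all 8 samples, 1 with no filter beyond 1 count, 1 with at least 10 counts in every sample, and 0 with any 1 sample left out. With the replicate number as a block, the 3 counts were 0, 0 and 0, with 2954 genes at an unadjusted p under 0.05. Over the genes tested, deviations of samples with the same number correlated at -0.03 to -0.002. Those of samples with differing numbers correlated at -0.03 to 0.03. Such correlations over all genes cannot show a batch that moved few of them, and whether same-numbered samples shared one was not tested. Library size alone moved the median log2 difference of all genes from -0.03 to -0.24, and 16.5% of its calls were higher in males against 42.0%. The mean of Fgf15 in males 2 to 4 stayed between 3.18 and 4.82 CPM under every alternative run. The causes were not tested. Depth limits Fgfr4 and Klb, whose counts per sample reach 24 at most.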
